A study of Homo sapiens with 6 samples.

Results

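The heat shock proteins and the DNAJ (HSP40) cochaperones are the protein-folding machinery described here in RD cells with and without knockdown of the kinase TAK1. Genes were taken by their symbol alone, from the prefixes HSPA, HSPB, HSPD, HSPE, HSPH, HSP90, DNAJA, DNAJB and DNAJC, with antisense and divergent transcripts and symbols of the pseudogene form (ending in P or in P and a number) left out. HSPA7 and DNAJB3, which GENCODE annotates as pseudogenes without such a symbol, remained. This gave 78 of the 58735 rows in the count table. They comprised 3 HSP90 genes, 17 rows of the HSP70 and HSP110 family, 3 rows of the mitochondrial chaperonin, 9 small heat shock proteins, 4 DNAJA, 13 DNAJB and 29 DNAJC rows. The symbol HSPA14 stood on 2 rows, and 3 of the 78 rows were read-through transcripts. Enough counts for a test were present for 60 of the 78.

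Molecular chaperones bind unfolded or partly folded proteins and help them reach their native state. HSP70 proteins do this in cycles of ATP hydrolysis that DNAJ proteins start, through their J domain, and that nucleotide exchange factors such as the HSP110 and BAG proteins complete, and HSP90 acts later on a narrower set of clients that includes many kinases and steroid receptors. Small heat shock proteins hold unfolded proteins without using ATP, and several of them are abundant in muscle, where with BAG3 they take part in the turnover of damaged filament proteins. Each compartment has its own members, and cytosolic members are induced through the transcription factor HSF1 while those of the endoplasmic reticulum are induced by the unfolded protein response.

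RD is an established cell line of embryonal rhabdomyosarcoma (ERMS), a soft tissue tumour with a skeletal muscle phenotype. The control group (Scrambled shRNA, n = 3) and the knockdown group (TAK1 shRNA, n = 3) were RD cells that had received lentiviral particles with the respective shRNA, and poly(A)-enriched RNA was sequenced. The sequenced knockdown came from a single TAK1 shRNA construct in a single line, so loss of TAK1 and any other action of that construct cannot be told apart. The labels number the samples but do not say whether they were separate cultures, so the p-values measure the spread between these samples, which may be technical. In bulk RNA, fewer cells that express a gene and less of its RNA per cell cannot be told apart.

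Total counts ran from 28839898 to 34469323 per sample. MAP3K7, which encodes TAK1, was at 77.9, 76.5 and 77.6 CPM (counts per 1000000 counts of the normalized library) in the control samples and at 30.5, 33.6 and 29.9 CPM in the TAK1 shRNA samples, a log2 fold change of −1.30 (SE 0.062, adjusted p = 4.45e-14, edgeR's quasi-likelihood test). Of 8 skeletal muscle markers, 6 had enough counts for a test (MYOD1, MYOG, DES, PAX7, CHRNA1 and MYMK), whereas MYF5 had 0 counts in every sample and MYF6 at most 1. In the knockdown MYOD1, MYOG and MYMK rose, by 0.37, 0.27 and 0.98 on the log2 scale, and CHRNA1 fell by 0.40. Of 10 epithelial, blood and endothelial markers, KRT18 alone had enough counts for a test, at 56.1 ± 3.61 CPM against 26.4 ± 1.10 CPM (SD, n = 3), and none of the other 9 had more than 15 counts in any sample. The part of this shift in muscle markers and KRT18 in the values below was not tested.

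Of the 60 tested heat shock protein and DNAJ genes, 12 were lower and 2 higher in TAK1 knockdown than in control RD cells. The lower genes included the endoplasmic reticulum chaperones HSPA5 and HSP90B1, the mitochondrial HSPA9 and the muscle small heat shock protein HSPB8. A gene was called where its adjusted p lay under 0.05 and its log2 fold change reached 0.25 in either direction. The 12 are 20% of the genes tested, where 11.3% of all 15935 tested genes were called lower, and the 2 are 3.33%, where 11.8% of all were called higher. At an adjusted p under 0.05 and any fold, 20 were lower (33.3%, background 17.2%) and 5 were higher (background 16.1%). All 3 knockdown samples lay below all 3 control samples for 27 genes (45%, background 22.2%), and above them for 4 (background 21.6%). The log2 fold change was negative for 45 of the 60 (75%, against 47.5% of all genes), with a median of −0.10 where that of all genes was 0.02, and it ran from −1.26 for HSPB8 to 0.53 for HSPB6. With scaling by library size alone, the split of all calls moved from 1879 higher and 1805 lower to 2376 higher and 1404 lower, and 16.7% of these genes were then called lower against 8.81% of all.

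**Figure D1:**
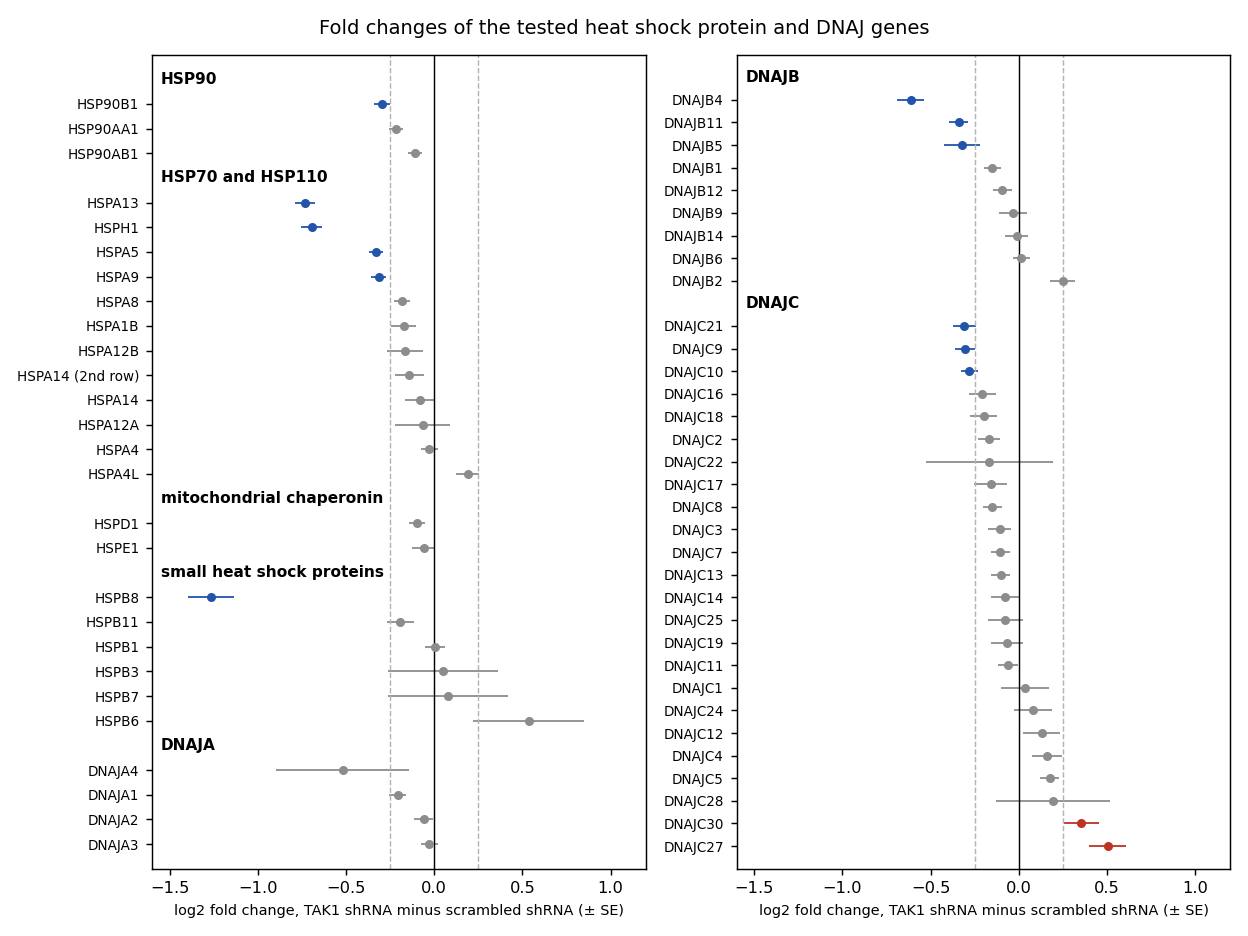
Log2 fold change (x axis, TAK1 shRNA minus scrambled shRNA, with SE) of the 60 tested heat shock protein and DNAJ genes, ordered within each family. Blue points were called lower and red points higher, grey points were not called, and dashed lines mark 0.25 in each direction. The 12 blue points spread over the HSP90, HSP70, small heat shock protein, DNAJB and DNAJC families, and both red points are DNAJC genes.

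Levels differed widely between the genes. Per kilobase of the canonical transcript, mean control expression was highest for HSP90AB1 at 789 CPM per kilobase, followed by HSPA8 at 760, HSPD1 at 554, HSP90AA1 at 441, HSP90B1 at 440 and HSPA5 at 422. HSPB1 stood at 294 CPM per kilobase, DNAJA1 at 128, DNAJC8 at 104 and DNAJB6 at 75.7, each the highest of its family. The highest levels thus belonged to chaperones of the cytosol, endoplasmic reticulum and mitochondrion, and all J proteins lay below these. Other chaperones did not lie above every J protein. HSPA9 at 85.1, HSPA4 at 51.0 and HSPA13 at 29.9 CPM per kilobase were below DNAJA1 and DNAJC8.

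Together the 78 rows took 1.26%, 1.27% and 1.30% of all counts in the control samples and 1.12%, 1.19% and 1.19% in the TAK1 shRNA samples. The groups did not overlap. The HSP70 and HSP110 family went from 0.428% ± 0.0104 to 0.370% ± 0.0143 of counts (SD, n = 3), and the HSP90 family from 0.458% ± 0.00875 to 0.416% ± 0.0163, also without overlap. The DNAJA genes (0.0479% ± 0.000601 and 0.0449% ± 0.00179), the DNAJB genes (0.0627% ± 0.000796 and 0.0608% ± 0.000718) and the DNAJC genes (0.127% ± 0.00137 and 0.124% ± 0.000716) differed by smaller amounts, again without overlap. The small heat shock proteins held 0.0266% in both groups. These shares are descriptions of raw counts and were given no test.

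**Figure D2:**
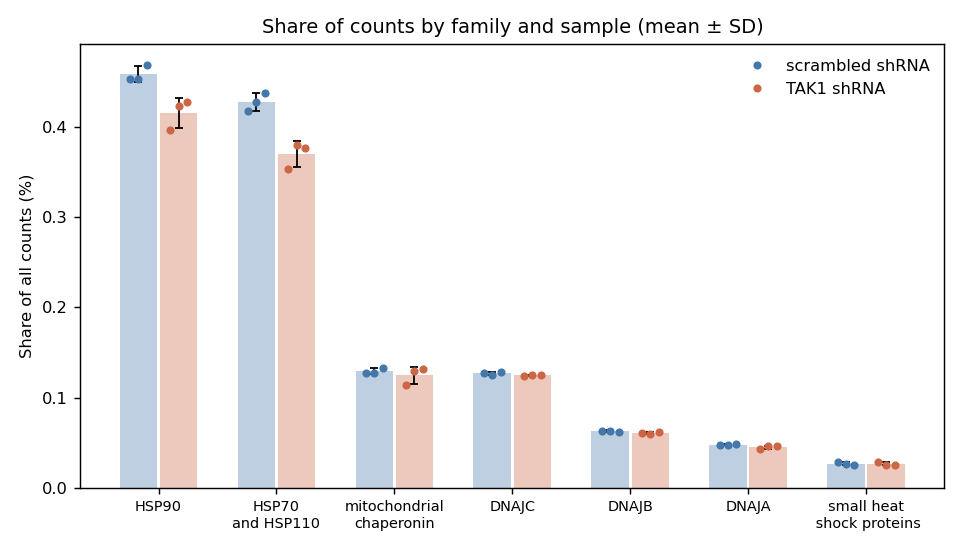
Share of all counts (y axis, %) held by each family in the samples with scrambled shRNA (blue) and TAK1 shRNA (orange). Bars are means with SD and points are single samples. Control and knockdown points separate for HSP90 and for HSP70 and HSP110, and by smaller amounts for DNAJA, DNAJB and DNAJC. Those of the small heat shock proteins and of the mitochondrial chaperonin overlap.

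The chaperones of the endoplasmic reticulum held the largest share of lower calls among the 4 compartment and induction groups examined. Of the 8 genes listed for it, all tested, 5 were called lower (62.5%, background 11.3%) and 0 higher, with a median log2 fold change of −0.29. This list was chosen with earlier results of these data known and does not hold every J protein of the compartment, so the share depends on the choice. HSPA5 (BiP, chr9:125234853-125241382, minus strand, GRCh38) is the HSP70 of this compartment and holds the stress sensors of the unfolded protein response inactive. It was at 1633, 1647 and 1685 CPM in the control samples and at 1317, 1294 and 1337 CPM in the TAK1 shRNA samples. The highest knockdown sample lay below the lowest control sample, and the log2 fold change was −0.33 (SE 0.038, adjusted p = 2.21e-07).

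HSP90B1 (GRP94, chr12:103930107-103953931, plus strand), the HSP90 of the endoplasmic reticulum with integrins and Toll-like receptors among its clients, was at 1175, 1220 and 1277 CPM against 924, 1037 and 1027 CPM. Again the groups did not overlap, with a log2 fold change of −0.30 (SE 0.046, adjusted p = 1.51e-05). This value lies close to the fold threshold and was −0.25, just under it, with scaling by library size alone and without TAK1 shRNA replicate 1. Exons of HSP90B1 overlap TTC41P and UQCC6 on the other strand and MIR3652 on its own, and whether the counting used strand is not given in the sources used here.

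HSPA13 (STCH, chr21:14371115-14383484, minus strand), an HSP70-like protein of microsomes that consists of the ATPase domain without the substrate-binding domain, showed the largest change of this group. It was at 115, 118 and 121 CPM in the control samples and at 64.8, 73.2 and 75.0 CPM in the TAK1 shRNA samples, a log2 fold change of −0.73 (SE 0.056, adjusted p = 2.18e-10). The control samples differed from each other by far less than the distance to the knockdown samples.

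DNAJB11 (ERdj3, chr3:186567403-186585800, plus strand), a soluble cochaperone that hands unfolded proteins to BiP, was at 76.9, 77.3 and 77.9 CPM against 60.4, 58.7 and 64.4 CPM, a log2 fold change of −0.34 (SE 0.055, adjusted p = 2.69e-05). DNAJC10 (ERdj5, chr2:182716255-182794464, plus strand), a disulfide reductase that acts in the degradation of misfolded proteins, was at 198, 203 and 202 CPM against 159, 167 and 171 CPM. Its log2 fold change of −0.28 (SE 0.046, adjusted p = 3.57e-05) was −0.23 with scaling by library size alone. Both genes share exon sequence with another annotated gene, ENSG00000283149, HRG-AS1 and TBCCD1 for DNAJB11 and RPL31P15 for DNAJC10.

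The other 3 cochaperones on the list were not called. DNAJB12 and DNAJB14, J proteins of the same compartment left out of the list, were not called either, with log2 fold changes of −0.09 and −0.01. The same holds for DNAJC14, DNAJC16, DNAJC18 and DNAJC25, with log2 fold changes of −0.08, −0.21, −0.20 and −0.08. Of these 4, DNAJC16 had an adjusted p of 0.0342 by edgeR's quasi-likelihood test and missed only the fold threshold. Adding these omitted genes to the list would make its share of lower calls smaller. DNAJB9 (ERdj4), a BiP cochaperone strongly induced by the unfolded protein response, was at 27.6, 28.1 and 29.1 CPM in the control samples and at 25.3, 26.5 and 31.0 CPM in the knockdown samples. These values overlap, with a log2 fold change of −0.03 (adjusted p = 0.790). DNAJC3 (p58IPK), which also restrains the kinase PERK, had a log2 fold change of −0.11 (adjusted p = 0.214), and DNAJC1 (ERdj1), a membrane protein at the translocon, had 0.03 (adjusted p = 0.877, edgeR's quasi-likelihood test). The list thus divided, with HSPA5, HSP90B1, HSPA13, DNAJB11 and DNAJC10 called lower and DNAJB9, DNAJC3 and DNAJC1 not called. Whether the unfolded protein response differed between the groups was not tested.

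The promoters of HSPA5 and HSP90B1 are shown because they held the endoplasmic reticulum stress element, a motif bound by factors of the unfolded protein response, and were the only ones of the 87 promoters matched to heat shock protein and DNAJ genes that did. The motif was searched on both strands as CCAAT followed, after 9 free bases, by CCACG, in RefSeq promoters of GRCh38.p14 from 250 bases before to 50 bases after the transcription start. It was found in 27 of 35116 promoters (0.0769%), in these 2 of the 87 (2.3%), and in 0 of the 69 promoters of the cofactors described further on. In HSPA5 the match ran from −66 to −48 relative to the start, and in HSP90B1 from −194 to −176 and, on the other strand, from −89 to −71. Capitals mark the fixed letters of the motif.
HSPA5 chr9:125241361-125241439, minus strand: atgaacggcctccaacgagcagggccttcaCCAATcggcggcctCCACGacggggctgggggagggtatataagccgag
HSP90B1 chr12:103930186-103930369, plus strand: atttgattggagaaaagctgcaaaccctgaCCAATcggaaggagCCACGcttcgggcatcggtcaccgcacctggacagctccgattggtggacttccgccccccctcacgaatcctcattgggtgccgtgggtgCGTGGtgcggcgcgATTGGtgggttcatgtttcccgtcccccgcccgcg

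The cytosolic and mitochondrial genes listed as inducible by heat differed by smaller amounts in the median. Of 12 rows, 10 were tested and 1 was called lower (10%, background 11.3%) with 0 higher. This list too was chosen with earlier results known. It holds HSPA8 and HSP90AB1, which are largely constitutive, and leaves out HSPB8 and DNAJB4, which were called lower, so its share depends on the choice. At any fold, however, 6 of the 10 were lower at an adjusted p under 0.05 (60%, background 17.2%), and the median log2 fold change was −0.16. The gene that passed both thresholds was HSPH1 (HSP105, chr13:31134973-31162388, minus strand), an HSP110 protein that exchanges nucleotide on HSP70 and with it dissolves aggregates. HSPH1 was at 112, 107 and 111 CPM in the control samples and at 60.2, 73.3 and 69.9 CPM in the TAK1 shRNA samples, a log2 fold change of −0.70 (SE 0.061, adjusted p = 2.12e-09).

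The large cytosolic chaperones lay under the fold threshold. HSP90AA1, the inducible cytosolic HSP90, was at 1434, 1388 and 1451 CPM against 1178, 1211 and 1287 CPM, a log2 fold change of −0.22 (adjusted p = 0.000202). HSP90AB1, its constitutive counterpart, was at 2036, 1980 and 2033 CPM against 1812, 1877 and 1918 CPM, a log2 fold change of −0.11 (adjusted p = 0.0295). HSPA8, the constitutive HSP70 of the cytosol, was at 1672, 1717 and 1772 CPM against 1399, 1588 and 1564 CPM, a log2 fold change of −0.18 (adjusted p = 0.00266). None of these 3 overlapped between groups, and 22.2% of all tested genes likewise lay lower in every knockdown sample. Each of the 3 was lower by a small step on a very high level.

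DNAJA1, the main cytosolic partner of HSPA8, was at 297, 293 and 301 CPM against 242, 260 and 271 CPM, a log2 fold change of −0.21 (adjusted p = 0.00112). DNAJB1 (HSP40), the heat-inducible cochaperone, was at 148, 146 and 141 CPM against 136, 123 and 133 CPM, a log2 fold change of −0.15 (adjusted p = 0.0228). Without TAK1 shRNA replicate 3, DNAJA1 and HSP90AA1 passed the fold threshold as well, both at −0.26. The adjusted p of HSP90AB1 missed 0.05 in 3 of the 6 fits without 1 sample (Scrambled shRNA replicate 1, 2 or 3), at 0.0912, 0.0716 and 0.122, and was 0.193 with library size alone and 0.0576 with upper-quartile factors. That of DNAJB1 missed it in 3 of 6 (Scrambled shRNA replicate 1 or 2, TAK1 shRNA replicate 2), at 0.0933, 0.0912 and 0.128, and was 0.109 with library size alone.

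The remaining genes of the heat-inducible list with enough counts missed an adjusted p of 0.05. HSPD1 (HSP60) and HSPE1 (HSP10), which form the mitochondrial chaperonin, had log2 fold changes of −0.10 (adjusted p = 0.111) and −0.06 (adjusted p = 0.501) by edgeR's quasi-likelihood test, and their control and knockdown samples overlapped. The value of HSPD1 turned on single samples, being −0.15 (adjusted p = 0.0187) without TAK1 shRNA replicate 3 and −0.04 (adjusted p = 0.462) without TAK1 shRNA replicate 1, and its adjusted p was 0.0430 with no low-count filter. The genes lie head to head on chromosome 2 with overlapping exons on opposite strands. HSPB1 (HSP27), a small heat shock protein that binds actin filaments, was at 249, 224 and 213 CPM against 251, 218 and 218 CPM, and its mean of 229 CPM was the same in both groups (log2 fold change 0.00, SE 0.058).

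Of the stress-inducible HSP70 genes, HSPA6 and HSPA1A had few counts and HSPA1B was expressed. HSPA6 had 1, 5 and 2 counts in the control samples and 3, 12 and 2 in the knockdown samples, and HSPA1A had 4, 1 and 3 against 8, 12 and 4, so neither was tested. HSPA1B was at 30.7, 30.6 and 28.4 CPM against 26.6, 27.4 and 25.4 CPM, a log2 fold change of −0.17 (SE 0.071, adjusted p = 0.0640). HSPA1A and HSPA1B are near-identical copies within the major histocompatibility complex on chromosome 6, so how the counting divided reads between them is uncertain.

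The heat shock element, the site of HSF1, was searched as units of GAA alternating with TTC, with 2 free bases between units. The form with 2 units, GAA and then TTC, reads the same on both strands and stood in 6.77% of all promoters and in 18 of the 87 member promoters (20.7%), which belonged to 17 genes. The form with 3 units, GAA and then TTC and then GAA, searched on both strands, contains the shorter one and stood in 0.49% of all promoters and in 7 of the 87 (8.05%), those of HSP90AB1, HSPA8, HSP90AA1, HSPD1, DNAJA1, DNAJB6 and HSPA6. Of the 13 promoters of genes called lower, 0 held 3 units and 1 held 2 units (7.69%), that of HSPB8. Of the 60 promoters of tested genes not called lower, 12 held 2 units (20%) and 6 held 3 (10%). That set is not free of falling genes. Of its genes with 3 units, HSP90AB1, HSPA8, HSP90AA1 and DNAJA1 were lower at an adjusted p under 0.05 and missed only the fold threshold. HSPD1 and DNAJB6 missed both. HSPH1, though inducible by heat, had no match in this window. Promoters were found for 67 of the 77 symbols.

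The promoters of HSPA8, which has 2 matches of 3 units and fell by 0.18 on the log2 scale, and of HSPB8, with 2 units and the largest fall of the 60, are shown as the contrasting pair. Capitals mark the fixed letters of the heat shock element. HSPB8 held a second match of 2 units from 5 to 12 bases after the start, outside the stretch printed.
HSPA8 chr11:123062149-123062386, minus strand: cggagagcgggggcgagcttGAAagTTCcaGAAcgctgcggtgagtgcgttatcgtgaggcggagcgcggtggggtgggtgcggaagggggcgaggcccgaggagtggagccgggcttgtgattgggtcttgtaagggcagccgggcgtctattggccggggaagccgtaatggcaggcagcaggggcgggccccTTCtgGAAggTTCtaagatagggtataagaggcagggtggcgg
HSPB8 chr12:119178813-119178880, plus strand: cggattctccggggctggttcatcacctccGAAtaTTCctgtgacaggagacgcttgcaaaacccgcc

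**Figure D3:**
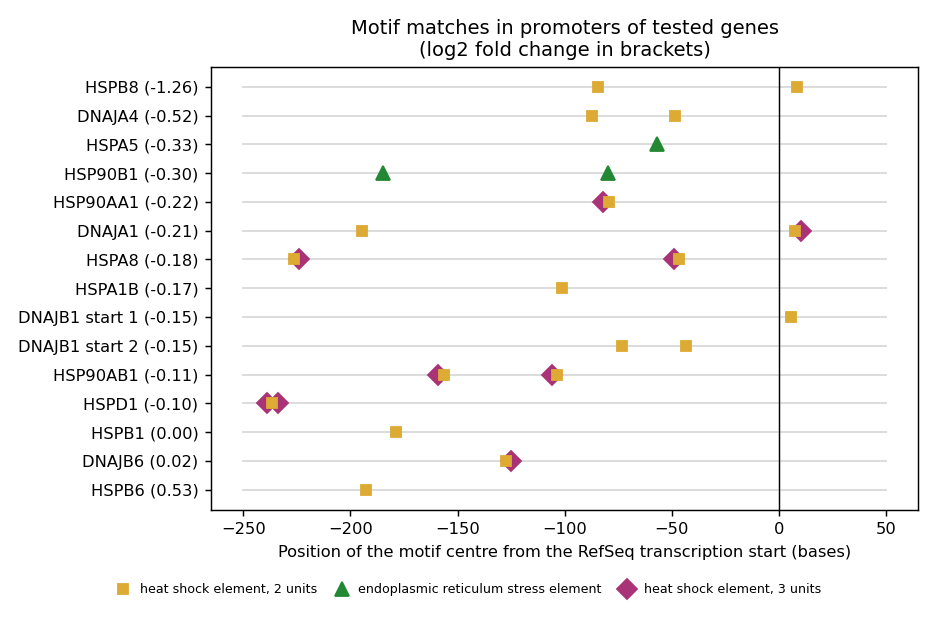
Position of motif matches (x axis, bases from the RefSeq transcription start) in the promoters of tested genes that hold at least 1 match, ordered by log2 fold change, which stands in brackets. Gold squares are heat shock elements of 2 units, purple diamonds those of 3 units and green triangles the endoplasmic reticulum stress element. The triangles occur in HSPA5 (−0.33) and HSP90B1 (−0.30), and the diamonds in genes whose log2 fold changes run from −0.22 to 0.02.

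Small heat shock proteins divided by gene. HSPB8 (HSP22, chr12:119171555-119224855, plus strand), which with BAG3 and HSP70 delivers damaged proteins to autophagy and is expressed in striated muscle, showed the largest fall of all 60 tested genes. It was at 12.6, 10.2 and 12.5 CPM in the control samples and at 4.86, 4.22 and 5.63 CPM in the TAK1 shRNA samples. The groups were far apart relative to the spread within them, with a log2 fold change of −1.26 (SE 0.129, adjusted p = 2.98e-08, edgeR's quasi-likelihood test). It stayed between −1.39 and −1.16 when any 1 sample was left out. An unnamed gene, ENSG00000256884, overlaps HSPB8 exons on the other strand.

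The other small heat shock proteins of the muscle list, HSPB2, HSPB3, HSPB6 and HSPB7, were expressed at about 1 CPM or not detected. CRYAB, a small heat shock protein placed in the cofactor list, had 2, 3 and 2 counts in the control samples and 13, 7 and 5 in the knockdown samples. It had too few counts for a test. HSPB6 (HSP20), a binding partner of 14-3-3 proteins that acts in muscle relaxation, was at 1.06, 0.667 and 1.36 CPM against 1.95, 1.33 and 1.21 CPM, a log2 fold change of 0.53 with an SE of 0.316 (adjusted p = 0.209). HSPB3 and HSPB7 had log2 fold changes of 0.05 and 0.08 with SEs of 0.312 and 0.342, and HSPB2 had 0 counts in every sample. Differences of ordinary size were not detectable for HSPB3, HSPB6 and HSPB7 at this depth. HSPB11, which bears the family name but is the intraflagellar transport protein IFT25, had a log2 fold change of −0.19 (adjusted p = 0.0585).

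**Figure D4:**
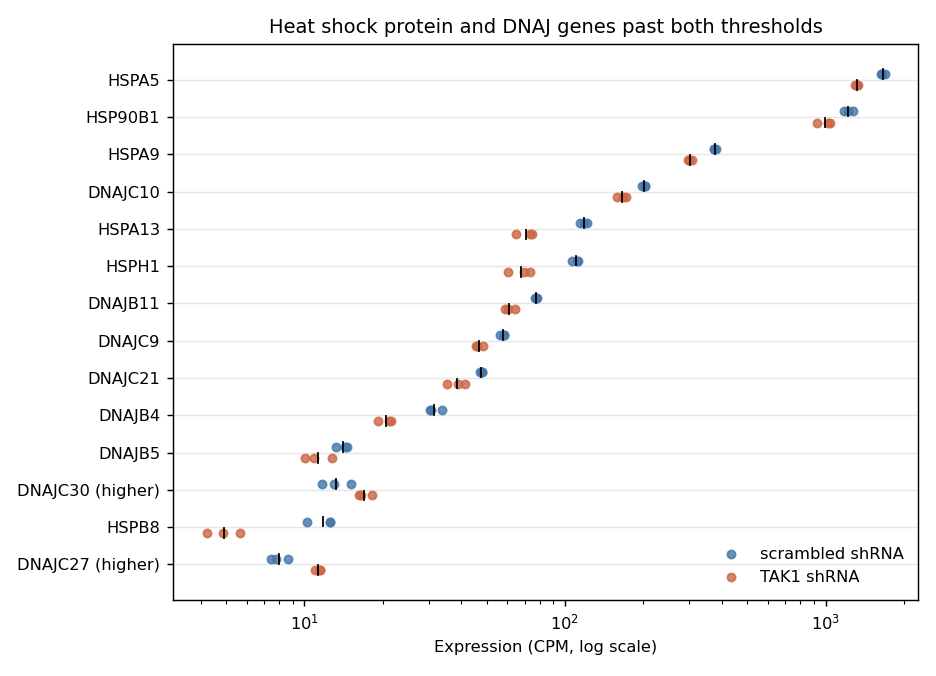
Expression (x axis, CPM on a log scale) of the 14 heat shock protein and DNAJ genes past both thresholds in each sample with scrambled shRNA (blue) and TAK1 shRNA (orange). Points are single samples and short black lines are means. For the 12 lower genes every orange point lies to the left of every blue point, and for DNAJC30 and DNAJC27 every orange point lies to the right.

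In the mitochondrion, 6 of 7 listed genes were tested, with 1 called lower and 1 called higher (16.7% each, where 11.3% and 11.8% of all genes were called) and a median log2 fold change of −0.05. HSPD1 and HSPE1 of the mitochondrial chaperonin were counted in the heat-inducible list instead, and neither was called. HSPA9 (mortalin, chr5:138553756-138575675, minus strand), the mitochondrial HSP70 that pulls precursors through the inner membrane, was at 372, 373 and 379 CPM against 298, 299 and 308 CPM. Replicates agreed closely, and the log2 fold change was −0.32 (SE 0.042, adjusted p = 2.09e-06). Of the listed J proteins of the mitochondrion, DNAJC30 was called higher and is described below, and the others gave no call. DNAJA3 (TID1), the matrix cochaperone of mortalin, had a log2 fold change of −0.03 (adjusted p = 0.705), DNAJC19 of the import motor −0.07 (adjusted p = 0.611), and DNAJC11 of the inner membrane contact sites −0.06 (adjusted p = 0.426, edgeR's quasi-likelihood test).

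DNAJC30 (chr7:73680918-73683453, minus strand), a mitochondrial J protein needed for the repair of respiratory complex I, was higher, at 15.1, 13.02 and 11.6 CPM against 18.2, 16.4 and 16.2 CPM. Its log2 fold change of 0.35 (SE 0.099, adjusted p = 0.00689) rests in part on the control sample with the lowest value, and without Scrambled shRNA replicate 3 it was 0.27 with an adjusted p of 0.0699 by edgeR's quasi-likelihood test. DNAJC28 had a log2 fold change of 0.19 (SE 0.324), and DNAJC15 had at most 3 counts in any sample.

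Over the J protein families, 3 of 9 tested DNAJB genes (33.3%), 3 of 24 DNAJC genes (12.5%) and 0 of 4 DNAJA genes were called lower, against a background of 11.3%. Besides DNAJB11 and DNAJC10 of the endoplasmic reticulum, these were DNAJB4, DNAJB5, DNAJC9 and DNAJC21. DNAJB4 (HLJ1, chr1:77979175-78017964, plus strand), a relative of DNAJB1 expressed in muscle, was at 30.7, 30.3 and 33.6 CPM against 19.2, 21.0 and 21.5 CPM, a log2 fold change of −0.61 (SE 0.076, adjusted p = 6.26e-07). Its exons overlap GIPC2 on the same strand. DNAJC9 (chr10:73183362-73247255, minus strand), a histone cochaperone, was at 58.5, 56.2 and 58.1 CPM against 46.0, 48.5 and 45.4 CPM, a log2 fold change of −0.31 (SE 0.059, adjusted p = 0.000224).

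DNAJC21 (chr5:34929559-34958964, plus strand), which acts in the maturation of the large ribosomal subunit, was at 48.0, 47.3 and 47.9 CPM against 35.2, 38.9 and 41.4 CPM. Its log2 fold change of −0.31 (SE 0.066, adjusted p = 0.000709) was −0.25, just under the threshold, without TAK1 shRNA replicate 1. DNAJB5 (chr9:34989641-34998900, plus strand), another relative of DNAJB1, was at 14.5, 14.3 and 13.2 CPM against 12.8, 10.9 and 10.03 CPM, a log2 fold change of −0.32 (SE 0.102, adjusted p = 0.0163). This call was lost without Scrambled shRNA replicate 1, without Scrambled shRNA replicate 2 and without TAK1 shRNA replicate 3, with adjusted p from 0.0601 to 0.0744.

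DNAJC27 (chr2:24943636-24972094, minus strand), in which a RAB-like GTPase domain is joined to the J domain, was the other gene called higher. It was at 7.42, 8.67 and 7.78 CPM in the control samples and at 10.9, 11.5 and 11.5 CPM in the TAK1 shRNA samples, a log2 fold change of 0.50 (SE 0.107, adjusted p = 0.00063). The groups did not overlap, and the antisense gene DNAJC27-AS1 shares exon sequence with it. DNAJB2, a neuronal cochaperone that binds ubiquitin, reached an adjusted p of 0.00757 at a log2 fold change that rounds to 0.25 but lies just under the threshold, with 40.1, 39.7 and 39.3 CPM against 53.1, 43.7 and 44.9 CPM.

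Most J proteins were not called, as were most genes. Of the 24 tested DNAJC genes 19 were not called, and of all 15935 tested genes 12251 were not, a similar share. The median size of the log2 fold change, sign aside, was 0.16 for the DNAJC genes and 0.19 for all genes. With sign, the median was −0.09 for the DNAJC family, −0.09 for the 9 tested DNAJB genes and −0.13 for the 4 DNAJA genes. DNAJB6, which suppresses aggregation of polyglutamine proteins and is mutated in a limb-girdle muscular dystrophy, was at 193, 187 and 185 CPM against 184, 190 and 196 CPM, overlapping between groups (log2 fold change 0.02, SE 0.046). DNAJC8, a splicing-associated J protein and the highest of its family per kilobase, had a log2 fold change of −0.15 (adjusted p = 0.0305) with overlapping groups, and its adjusted p ran from 0.00545 to 0.161 without any 1 sample.

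The 18 rows without enough counts were read as follows. The rows of HSPA7, DNAJC5G, DNAJB3, DNAJB8, DNAJC5B, HSPB2 and the read-through transcripts HSPE1-MOB4 and HSPB2-C11orf52 had 0 counts in all 6 samples. The other 10 had at most 19 counts in any sample. DNAJC6 (auxilin), which uncoats clathrin vesicles mainly in neurons, had 1, 8 and 2 counts in the control samples and 0 in each knockdown sample. DNAJB7 had 3, 0 and 4 counts against 19, 8 and 4. Such counts allow no comparison.

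The partners of these chaperones were taken from a list of 66 cofactors, among them HSF factors, BAG proteins, HSP90 cochaperones and subunits of the cytosolic chaperonin CCT and of prefoldin. Of 65 tested, 10 were called lower (15.4%, background 11.3%) and 1 higher (1.54%, background 11.8%), with a median log2 fold change of −0.09. At any fold, 25 of the 65 were lower at an adjusted p under 0.05 (38.5%, background 17.2%) and 6 of the 65 higher (background 16.1%).

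The heat shock factors themselves did not pass the test. HSF1, the main activator of heat-inducible chaperone genes, was at 97.2, 98.1 and 98.7 CPM against 106, 97.3 and 101 CPM, a log2 fold change of 0.05 (adjusted p = 0.488). HSF2 had a log2 fold change of −0.02 (adjusted p = 0.875, edgeR's quasi-likelihood test). These are RNA levels, and the activity of HSF1 is set largely on the protein.

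BAG3, the exchange factor that couples HSP70 to small heat shock proteins, fell the most of the cofactors. It was at 86.1, 82.2 and 81.1 CPM in the control samples and at 54.9, 53.2 and 51.4 CPM in the TAK1 shRNA samples, a log2 fold change of −0.65 (SE 0.055, adjusted p = 1.44e-09). HSPB8, its partner, and BAG3 were both lower in every knockdown sample than in every control sample (background 22.2%). In the endoplasmic reticulum HYOU1 (GRP170), an exchange factor of BiP, fell by 0.30 and SDF2L1, a component of BiP complexes, fell by 0.39 on the log2 scale (adjusted p = 6.9e-06 and 6.81e-05). SIL1, the other exchange factor of BiP, and the translocon proteins SEC63 and SEC62 were not called, with log2 fold changes of 0.09, −0.17 and −0.06 (adjusted p = 0.407, 0.0139 and 0.415).

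Some partners of HSP90 were called, at or near the fold threshold. STIP1 (HOP), which joins HSP70 to HSP90, fell by 0.26, as did the immunophilin FKBP4, while FKBP5 and the SIAH-binding protein CACYBP fell by 0.25. With library size alone these 4 log2 fold changes lay between −0.21 and −0.20, under the threshold, and each also lay under it without some 1 of the samples, at −0.24 for STIP1, −0.23 for FKBP4, −0.21 for FKBP5 and −0.22 for CACYBP without TAK1 shRNA replicate 1 (for FKBP4, replicate 2). Other HSP90 cochaperones of the list were not called. Among them, log2 fold changes were 0.03 for CDC37, −0.06 for AHSA1, −0.09 for PTGES3, −0.17 for PPP5C and 0.15 for UNC45A. CHORDC1 was at −0.25, just under the threshold. Also uncalled were PPID (−0.08), ST13 (−0.17), STUB1 (−0.04), FKBP8 (0.10), SGTA (0.17) and UNC45B (0.00). TTC4, with few counts, was at −0.60 (SE 0.276) and was not called. CDC37L1, a relative of the kinase-specific cochaperone CDC37, was the cofactor called higher, at 7.35, 7.18 and 7.85 CPM against 8.62, 9.74 and 8.997 CPM, a log2 fold change of 0.29 with an adjusted p of 0.0495. That call was lost with DESeq2's Wald test and in 5 of 6 fits without 1 sample.

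The chaperones of newly made actin and tubulin had negative log2 fold changes throughout, small for CCT and larger for some prefoldin subunits. All 8 subunits of CCT, which folds both proteins, lay lower in every knockdown sample than in every control sample (background 22.2%), with log2 fold changes from −0.24 for CCT5 to −0.07 for CCT3 and a median of −0.15, and 6 of the 8 were lower at an adjusted p under 0.05 (75%, background 17.2%). None reached the fold threshold. Of the 6 subunits of prefoldin, which delivers actin and tubulin to CCT, 3 were called lower (50%, background 11.3%). PFDN5 was at 113, 113 and 122 CPM against 74.0, 85.1 and 81.5 CPM (log2 fold change −0.54, SE 0.056, adjusted p = 4.76e-08), PFDN1 fell by 0.48 and VBP1 fell by 0.27 on the log2 scale. VBP1 lay under the fold threshold with library size alone, without Scrambled shRNA replicate 3 and without TAK1 shRNA replicate 1, at −0.23, −0.20 and −0.24.

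**Figure D5:**
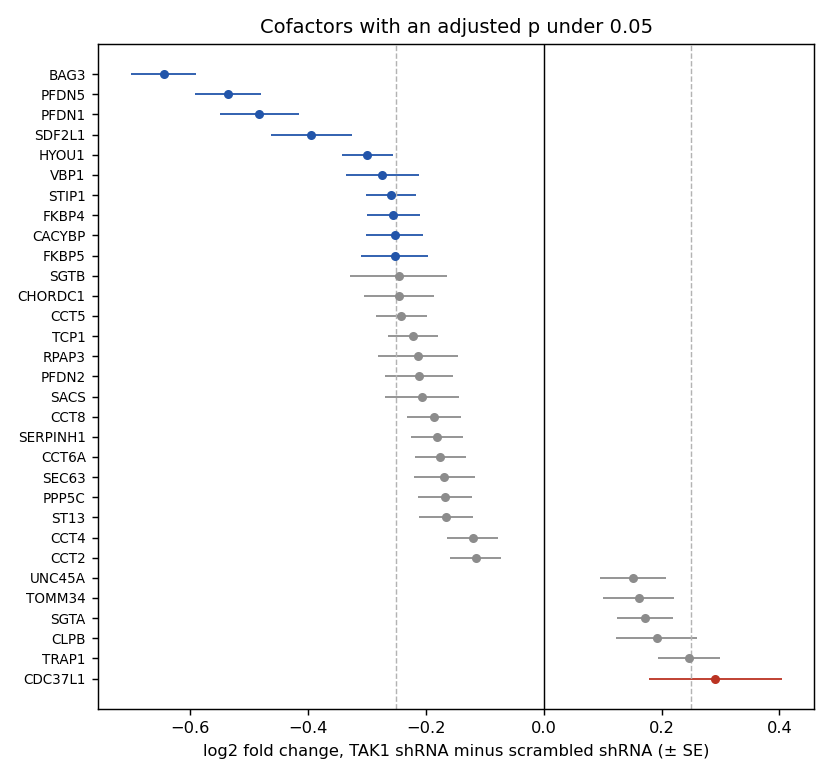
Log2 fold change (x axis, TAK1 shRNA minus scrambled shRNA, with SE) of the 31 cofactors with an adjusted p under 0.05. Blue points were called lower, the red point (CDC37L1) was called higher, grey points lie under the fold threshold, and dashed lines mark 0.25 in each direction. BAG3 (−0.65) and PFDN5 (−0.54) lie farthest to the left.

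Because 3 samples stood against 3, an exact two-sided permutation test of any single gene could not go below p = 0.1, and adjusted p come from the quasi-likelihood test of edgeR with Benjamini-Hochberg correction across all 15935 genes. Those given without a sample come from fits of their own, which tested 16227 to 16427 genes, and the fit with no low-count filter tested 29336.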

How the data were processed

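The authors extracted RNA with TRIzol and silica columns, enriched it for poly(A) and sequenced it at a service provider. They called bases with CASAVA, filtered out reads with adaptors or poor base quality, and aligned what was left with STAR to GRCh38 (hg38), per the submitters' processing notes. The deposited values are raw read counts per gene, without normalization. The counter, annotation and strand setting are not given in the sources used here. Total counts were 28839898 to 34469323 per sample.

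Scaling used trimmed means of M-values (TMM), and the groups of 3 samples were compared with the quasi-likelihood test of edgeR 4.0.16 in R 4.3.3, after its default expression filter and without covariates. P-values of 15935 genes were adjusted by the Benjamini-Hochberg method. A call needed an adjusted p under 0.05 and a log2 fold change of 0.25 or more in either direction. CPM values use the normalized library sizes. The test was checked on simulated data with log2 changes of 0.5 and 1, of which it recovered 67 of 100 and 82 of 100. Among genes at 10 CPM or more it recovered 58 of 60 and 54 of 54. Smaller changes, near the fold threshold of 0.25, were not simulated. Alternatives were DESeq2 1.42.0, other scalings, filters and fold thresholds, a replicate block and fits without 1 sample. Positions, transcript lengths and overlaps are from GENCODE 44, and promoters from RefSeq.

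Genes named are MAP3K7, all called members with a mean of at least 1 CPM, the highest of each family per kilobase, the heat-inducible, endoplasmic reticulum, mitochondrial and muscle lists, HSF1, HSF2 and the called cofactors. Others, such as HSPB11, DNAJB2, DNAJC6, DNAJB7, CCT subunits and uncalled cofactors, were named after their values were seen. The members and lists were chosen with earlier results of these data known, and the endoplasmic reticulum stress element was added after seeing the data. HSP90 pseudogenes whose symbols end in P were also left out.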

Additional observations from a re-analysis of the deposited data

How the results depend on the processing

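Of the heat shock protein and DNAJ genes, 12 were called lower with DESeq2 and with the other scalings by count ratios or upper quartile. The count was 4 at a fold threshold of 0.5 and 20 with none, and 11 to 14 without any 1 sample. The count called higher went from 2 to 1 and 5 with these thresholds and was 1 to 3 without any 1 sample (1 without Scrambled shRNA replicate 3). Of all genes, 735 were higher and 680 lower at 0.5, and 2734 were lower with no fold threshold. The median log2 fold change of the members was −0.056 with library size alone and −0.134 to −0.0906 without any 1 sample. The cofactors called lower went from 10 to 6 (upper quartile), 5 (library size), 2 (fold 0.5) and 25 (no fold threshold). Those called higher went from 1 to 0 with DESeq2, median-of-ratios factors, no low-count filter and a fold of 0.5, to 2 with upper quartile, library size and a minimum of 10 counts, to 6 with no fold threshold and to 0 to 2 without any 1 sample. Log2 fold changes near 0 changed sign for uncalled genes. HSPB1 was at −0.0014 with DESeq2, −0.0015 with median-of-ratios factors and −0.0030 with no low-count filter. DNAJB9, DNAJA3 and HSF2 were at 0.0145, 0.0198 and 0.0258 with library size alone. Without any 1 sample the ranges were −0.0674 to 0.0685 for HSPB1, −0.12 to 0.0047 for HSPE1, −0.13 to 0.023 for DNAJB9, −0.044 to 0.10 for DNAJC1, −0.11 to 0.14 for HSPB3, −0.0276 to 0.17 for HSPB7, −0.0184 to 0.04 for DNAJB6 and −0.10 to 0.0724 for HSF2. The causes were not tested. Same-numbered samples hardly deviated together (correlations across genes 0.037, 0.036 and 0.016), so the numbers were not taken as pairs, and a replicate block called 12 members lower and 1942 genes higher and 1848 lower in all. With it HSPD1 and HSPA1B had adjusted p of 0.0201 and 0.0361.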

Other observations

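Of 92 pseudogene rows of these families that were left out, 2 had a mean of at least 10 counts. HSPD1P1 had 16, 16 and 13 counts in the control samples and 22, 18 and 15 in the TAK1 shRNA samples, and HSP90AB3P had 6, 9 and 21 against 18, 3 and 7. Both overlapped between the groups.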
